A study of Homo sapiens with 14 samples.

Results

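The ARID5B locus was taken as all peaks lying on chromosome 10 between 61.8 and 62.2 Mb (GRCh38), an interval of 400 kb that holds the whole gene and its flanks. Of 273342 peaks kept from 14 peak lists, 241 (0.0882%) lay in the interval. The interval had been picked because it contains H3K27ac called after SATB1 knockdown and in no control list, so the H3K27ac differences given here are a description without a test. CTCF, SATB1 and Matrin 3 were not used in that choice. No peak crossed an edge of the interval. The H3K27ac peaks nearest to the upstream edge inside it lay 11.8 and 17.1 kb from the edge in the shSATB1 lists and 17.4 and 17.7 kb from it in the shCtrl lists. Those nearest outside lay 4.74 and 13.3 kb before the edge in shSATB1 and 12.4 and 13.1 kb before it in shCtrl. At the downstream edge the nearest inside lay at 7.04 and 11.5 kb in shSATB1 and at 11.4 kb in each shCtrl list, and the nearest outside at 32.9 and 31.8 kb in shSATB1 and at 32.7 and 33.7 kb in shCtrl.

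All 14 libraries were CUT&Tag, in which an antibody directs a transposase to cut and tag the DNA near its target, from Jurkat, an established human line of T cell acute lymphoblastic leukaemia. Jurkat cells infected with a lentivirus carrying an shRNA against SATB1 (shSATB1) were profiled for H3K27ac (2 libraries) and CTCF (3), and cells with a control shRNA (shCtrl) for H3K27ac (2), CTCF (3) and SATB1 (2). Matrin 3 was profiled in 2 further Jurkat libraries with no shRNA on the label. No label says that replicates were separate cultures, so the spread between libraries may be technical, and SATB1 itself was mapped only in shCtrl cells, so the lists do not show how far SATB1 was depleted.

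The lists were unequal. H3K27ac lists held 17925 and 15972 peaks in shSATB1 and 17863 and 17141 in shCtrl. CTCF lists held 14695, 17904 and 20284 peaks in shSATB1, against 31270, 31141 and 32540 in shCtrl. The lowest total signal of a listed peak, which is coverage summed over the peak and was not scaled between libraries, was 4405 and 4476 in the H3K27ac shSATB1 lists and 6836 and 6653 in the H3K27ac shCtrl lists. In the CTCF lists it was 6017, 6923 and 7332 in shSATB1, against 13359, 14001 and 14792 in shCtrl. In the SATB1 pair, 6001 peaks began at the same base, 40.8% of the shorter list, so the pair was counted as 1 sample. The second Matrin 3 list held 2105 peaks and none in the interval. H3K27ac lay at an end of 11 of 11 T cell marker genes in both shCtrl lists, and at 1 of 14 markers of other lineages, the B cell receptor component CD79A.

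ARID5B encodes a DNA-binding protein with an AT-rich interaction domain that partners with PHF2, a histone demethylase, in gene regulation. In T cell leukaemia it belongs to the circuit of TAL1, a basic helix-loop-helix factor that binds E-box sequences together with GATA3, RUNX1 and MYB. H3K27ac marks active promoters and enhancers, and long stretches of it are a feature of genes that define a cell type. SATB1 is a chromatin organiser abundant in T cells, CTCF marks insulator and loop-anchor sites, and Matrin 3 is a nuclear matrix protein.

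ARID5B spans 195 kb on the plus strand, from 61901699 to 62096944. Upstream lies the long noncoding RNA gene LINC02625, with 67.9 kb of its length in the interval, and downstream the protein-coding gene RTKN2, with 16.1 kb in the interval. Outside it, CABCOCO1 ended 33.2 kb before the upstream edge and ZNF365 began 174 kb past the downstream edge. RefSeq (GRCh38.p14) annotates a pair of start sites for ARID5B, 148 kb apart, the distal one at the outer end of the gene and the internal one within it, and the 250 bases before each are shown because the peaks over them differed between the lists. Capitals mark letters that match the searched motifs AACNG (bound by MYB) and CCCTC (part of the CTCF motif) on either strand.
ARID5B distal start, chr10:61901449-61901698, plus strand: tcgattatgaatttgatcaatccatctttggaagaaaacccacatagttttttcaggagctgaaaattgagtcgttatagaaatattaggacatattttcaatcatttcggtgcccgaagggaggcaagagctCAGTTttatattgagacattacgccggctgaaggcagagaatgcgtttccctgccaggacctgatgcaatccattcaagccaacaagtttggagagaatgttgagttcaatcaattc
ARID5B internal start, chr10:62049107-62049356, plus strand: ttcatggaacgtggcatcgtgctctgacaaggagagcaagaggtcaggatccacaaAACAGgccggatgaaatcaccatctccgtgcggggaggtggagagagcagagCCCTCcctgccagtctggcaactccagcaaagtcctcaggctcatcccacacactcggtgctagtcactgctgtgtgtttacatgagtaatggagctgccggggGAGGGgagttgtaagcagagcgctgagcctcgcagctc

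The window before the distal start had a GC content of 40.4%, at the 13.8th percentile of 35116 promoter windows of the same length, whose median was 58.0%. The window before the internal start had 57.6%, at the 48.6th percentile. Searched on both strands, AACNG occurred 1 time in each window and in 70.6% of all promoter windows. CCCTC occurred 0 times before the distal start, 2 times before the internal start and in 66.6% of all windows. The E-box CANNTG, its subset CAGNTG, the GATA motif GATAA and the RUNX motif TGTGGT occurred 0 times in both windows, and in 61.8%, 42.5%, 20.4% and 11% of all windows. These matches describe letters in 250 bases and nothing outside them.

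The window before the distal start lay under peaks of all targets. H3K27ac covered its window in both shSATB1 lists, at the 89.6th and 88.4th percentile of maximum signal, and in both shCtrl lists, at the 89.8th and 84.6th. A percentile here is the place of a peak among all peaks of its own list by maximum signal, the highest coverage within the peak. CTCF covered the window in shSATB1 replicates 1 and 3, at the 9.27th and 91.1st percentile, and in all 3 shCtrl lists, at the 92.2nd, 94.2nd and 92.8th. These percentiles belong to whole peaks, with maxima at -4.54 kb from the distal start in shSATB1 replicate 3 and -4.54 to -4.51 kb in shCtrl. In shSATB1 replicate 1 the covering peak had its maximum at -1.27 kb, and a separate peak with its maximum at -4.56 kb stood at the 87.8th percentile. In shSATB1 replicate 2 CTCF peaks of 1.91 and 1.74 kb ended before the window and began after it. The window before the internal start lay under H3K27ac in shSATB1 replicate 2 (85.1st percentile) and in both shCtrl lists (80.7th and 78.0th). In shSATB1 replicate 1 it lay in a gap between peaks. The maxima of the covering peaks lay at 136 kb in shSATB1 and 137 kb in shCtrl, and the internal start at 148 kb. No SATB1, CTCF or Matrin 3 peak covered the internal window. The distal window lay under SATB1 in replicate 1 (84.4th) and Matrin 3 in replicate 1 (18.8th).

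**Figure D1:**
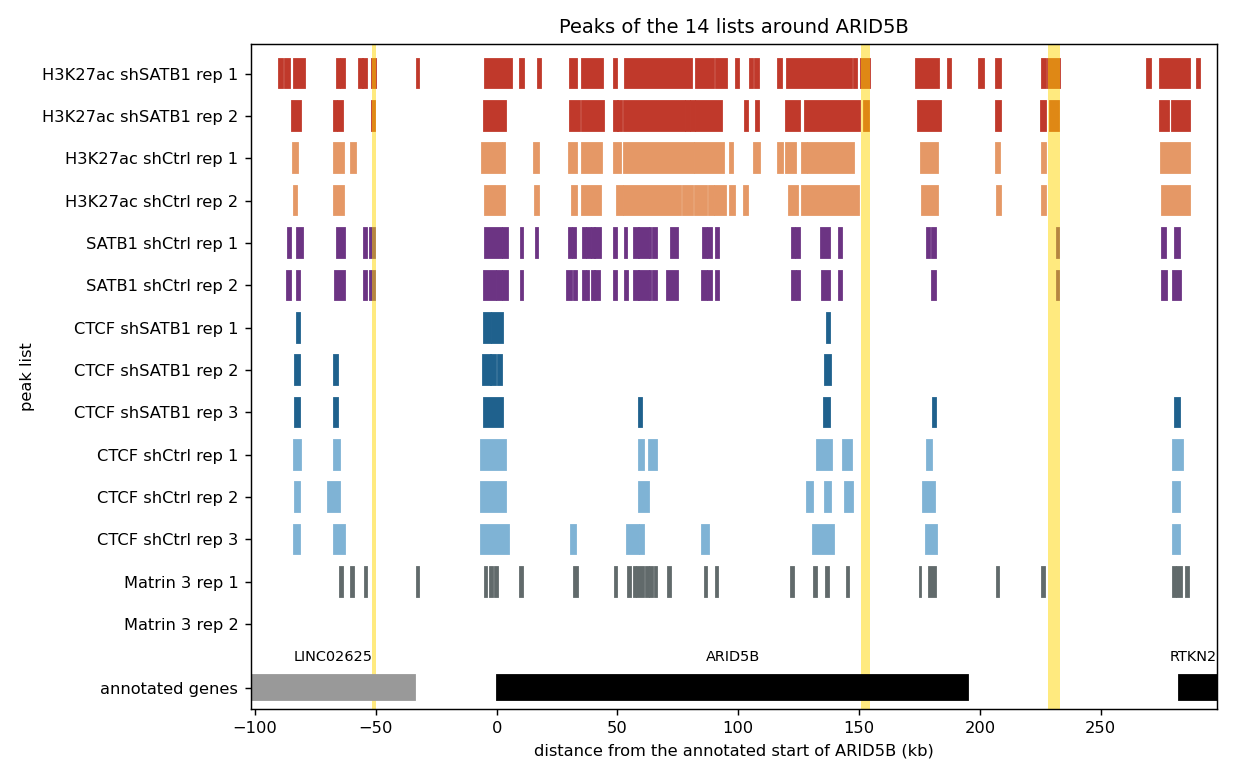
Peaks of the 14 lists over the interval, with distance from the annotated start of ARID5B (kb) across and 1 row per list; black bars are protein-coding genes, the grey bar is LINC02625, and the 3 shaded bands are H3K27ac regions called in both shSATB1 lists and no shCtrl list. H3K27ac and SATB1 fill much of the gene body, CTCF peaks are fewer in shSATB1 than in shCtrl, and Matrin 3 replicate 2 has no peak.

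In control cells H3K27ac covered more of the ARID5B body than of nearly all other long genes, and it covered more of the locus after SATB1 knockdown. Peaks covered 159 and 133 kb of the interval in the shSATB1 lists, against 128 and 121 kb in the shCtrl lists. The groups did not overlap. The means were 146 ± 17.9 kb in shSATB1 and 125 ± 5.16 kb in shCtrl (SD, n = 2 each), a difference of 21.4 kb or 17.2%. Covered length was higher in every shSATB1 list in 7.15% of the 400 kb tiles of the genome that held H3K27ac, and lower in every shSATB1 list in 50.6%, shares given as background from which nothing is read, since the interval was picked on this contrast. The shSATB1 lists covered less of the genome as a whole, 46.5 and 41.0 Mb, against 53.8 and 52.0 Mb in shCtrl. The interval took 0.341% and 0.325% of all H3K27ac-covered length in the shSATB1 lists and 0.239% and 0.233% in the shCtrl lists, a ratio of means of 1.41, and such a share was higher in every shSATB1 list in 23.2% of tiles. The size of the difference rested on shSATB1 replicate 1: it was 8.74 kb without that library and 34.1 kb without shSATB1 replicate 2.

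The mean covered length was higher in shSATB1 in the gene and in both flanks. Within the ARID5B body H3K27ac covered 57.1% and 52.3% of the length in shSATB1 and 50.5% and 48.8% in shCtrl. In the flank downstream of the gene it covered 26.1 and 18.6 kb in shSATB1, against 15.2 and 15.0 kb in shCtrl, and the groups were apart. In the flank upstream it covered 21.3 and 12.9 kb in shSATB1, against 14.5 and 10.7 kb in shCtrl, and the groups overlapped. Peaks numbered 34 and 24 in shSATB1, against 21 and 20 in shCtrl, where the lists ended at a higher total signal.

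The widest H3K27ac peak lay in the same stretch of the gene body in all 4 lists, within 52.5 to 81.6 kb from the distal start. It measured 27.6 and 25.4 kb in shSATB1, where it ranked 31st and 39th by width in the list, and 28.9 and 23.6 kb in shCtrl, where it ranked 50th and 79th. By total signal it ranked 90th and 82nd in the shSATB1 lists, against 157th and 172nd in the shCtrl lists. The rank is a place within each list, and the lists differ in length. A further block of merged peaks reached from 120 to 150 kb and ended near the internal start.

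**Figure D2:**
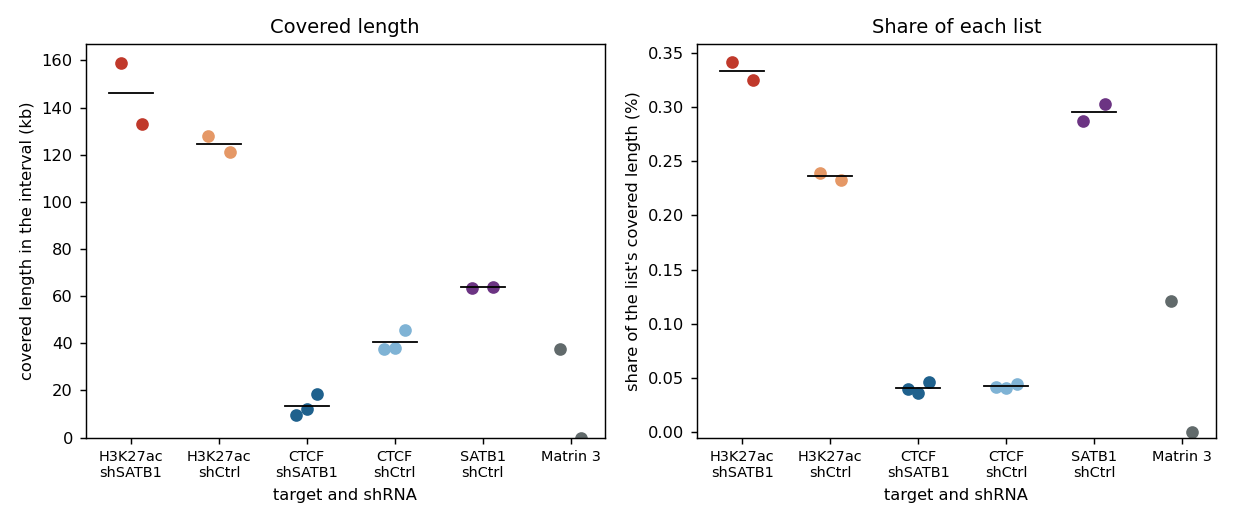
Length covered by peaks in the interval (left, kb) and the part of each list's whole covered length that lies there (right, %), with 1 point per library and a line at the mean of each group except Matrin 3. Covered H3K27ac is higher in shSATB1 than in shCtrl on both scales, whereas CTCF is lower in shSATB1 in covered length and overlaps between the arms as a share.

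Merging the 4 H3K27ac lists gave 34 regions in the interval. Of these, 3 were called in both shSATB1 lists and in no shCtrl list (8.82%, with 2.62% of all 20526 regions called so), 1 was called in both shCtrl lists and no shSATB1 list (2.94%, with 5.95% of all regions), and 13 were called in all 4 lists (38.2%, with 59.7% of all regions). A further 12 regions were called in shSATB1 replicate 1 alone, a pattern held by 5.66% of all regions, and none in shSATB1 replicate 2 alone. Most of these 12 had a total signal, 4511 to 6403, below the lowest listed in either shCtrl list (6836 and 6653). The signal was not scaled between libraries, and what part this had in the calls was not tested. The count of regions called in shSATB1 alone is tied to how the interval was picked, which required such a region in a flank, and is a description. Leaving out shSATB1 replicate 2 raised the gained regions to 15, and the genome-wide share with it to 8.56%.

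The downstream gained region lay between ARID5B and RTKN2, at chromosome 10, 62129796 to 62134843, in no annotated gene. It was 5.05 kb wide and started 32.9 kb past the end of ARID5B and ended 49.1 kb before RTKN2. Among 537 gained regions of the genome, whose median width was 1.65 kb, its width stood at the 99.5th percentile. Its peaks stood at the 75.6th and 67.1st percentile of maximum signal in the shSATB1 lists, whereas the medians over all gained regions were the 25.0th and 21.4th. Total signal was 28189 and 27665 in those peaks.

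Only 802 bp separated its upstream side from a region of 1.85 kb that was called in all 4 lists, at percentiles of 40.5 and 25.9 in shSATB1 and 10.3 and 28.0 in shCtrl. Of the 537 gained regions, 39 (7.26%) lay within 1 kb of a region called in all 4 lists. If peaks less than 1 kb apart were joined, a setting chosen after seeing the data, this region was no longer gained, since it became part of a region called in every list. A SATB1 region of 1.07 kb lay inside it, at the 44.2nd and 37.2nd percentile of the SATB1 lists, and the SATB1 and H3K27ac maxima were 32 to 122 bp apart. No CTCF or Matrin 3 peak lay there.

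**Figure D3:**
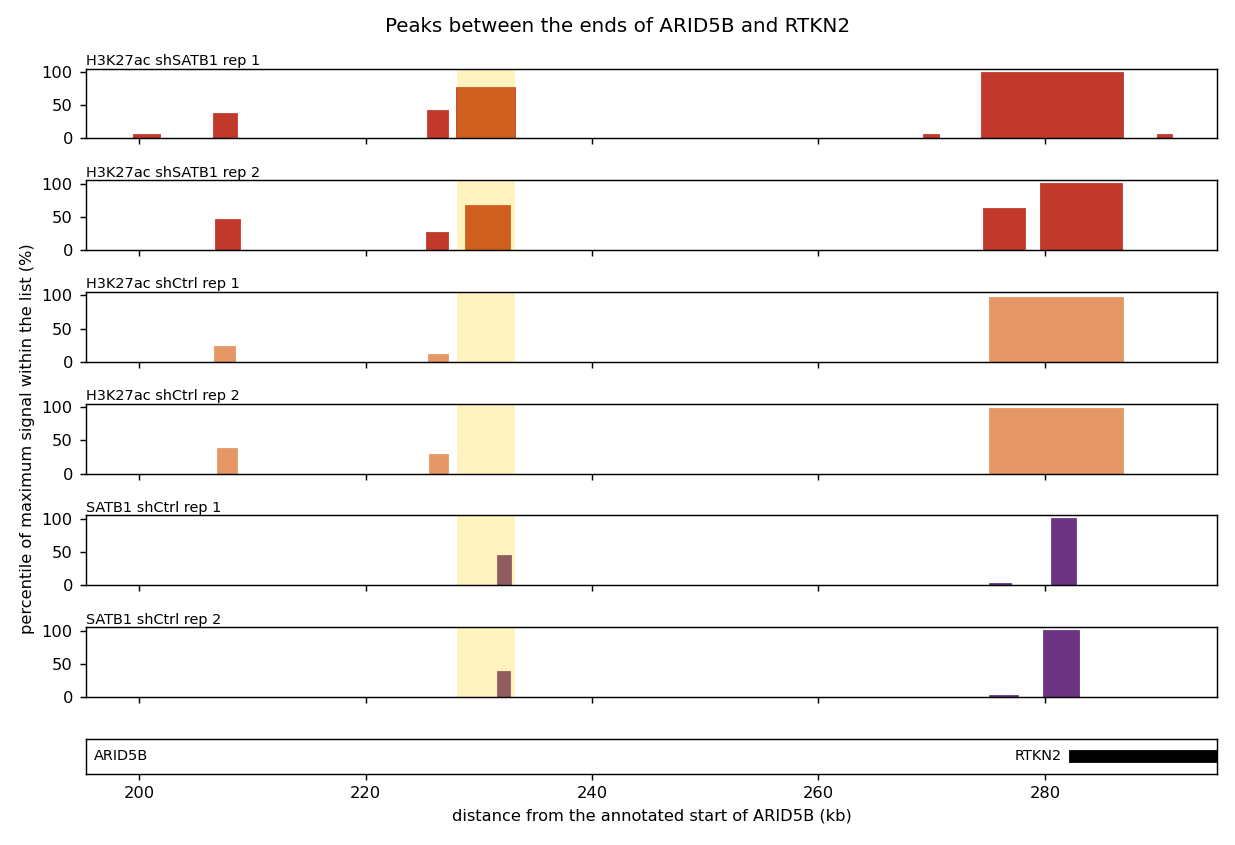
H3K27ac and SATB1 peaks between the ends of ARID5B and RTKN2, with distance from the annotated start of ARID5B (kb) across and the percentile of maximum signal within each list (%) up. In the shaded band, at 228 to 233 kb, both shSATB1 lists have an H3K27ac peak and both SATB1 lists a narrower peak at its right side, while both shCtrl H3K27ac lists have none.

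The upstream gained region lay inside LINC02625, at chromosome 10, 61850017 to 61851882, and ended 49.8 kb before the distal start. It was 1.87 kb wide, and its peaks stood at the 16.4th and 45.8th percentile of the shSATB1 lists. Their total signal, 6639 and 5902, was below the lowest listed in either shCtrl list, on a signal that was not scaled between libraries. What part that difference in where the lists end had in the call was not tested. A SATB1 region overlapped it, at the 44.2nd and 57.9th percentile, with maxima 33 to 196 bp from those of H3K27ac.

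The third gained region lay in the gene body, at chromosome 10, 62052426 to 62056144, 151 to 154 kb from the distal start and past the internal start. Its peaks were 3.72 kb wide at the 25.0th percentile in shSATB1 replicate 1 and 1.81 kb wide at the 0.229th percentile in replicate 2. Total signal was 16279 in replicate 1 and 5503 in replicate 2, on a scale not matched between libraries. The replicate 2 value lay below the lowest listed in either shCtrl list (6836 and 6653), and the replicate 1 value above it. What part this had in the call was not tested. A region called in all 4 lists ended 297 bp before this gained region, and joining peaks less than 1 kb apart removed the call here too. No SATB1 region overlapped it. SATB1 regions lay on 2 of the 3 gained regions of the interval, beside 226 of 537 (42.1%) over the genome. Of the 13 regions of the interval called in all 4 lists, 11 held a SATB1 region, beside 63.1% of all regions called so.

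The single lost region, of 2.15 kb, lay in the gene body at chromosome 10, 61998102 to 62000248, over the annotated noncoding gene LOC124902435. It was absent from both shSATB1 lists and stood at the 12.9th and 9.24th percentile of the shCtrl lists. In shSATB1 replicate 1 a peak of 1.54 kb lay just past it, at 62000604 to 62002140.

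SATB1 in control cells was dense over ARID5B. The interval held 32 SATB1 regions (called in both lists) of 13072 in all, covering 68.4 kb, with a median width of 1.74 kb in the interval and 1.36 kb over all regions. The strongest lay at the end of RTKN2 nearer to ARID5B, at the 99.9th percentile in each list. The next lay 181 kb from the distal start, in the ARID5B body, at the 97.9th and 98.0th percentile, and 60.9 kb from it, inside the widest H3K27ac peak, at the 96.3rd and 97.4th. At the distal start a region of 7.54 kb stood at the 84.4th and 79.9th percentile. The weakest, 142 kb from the distal start, stood at the 1.58th and 0.340th percentile.

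SATB1 regions of the locus overlapped H3K27ac in most cases and CTCF in fewer. H3K27ac regions called in both shCtrl lists overlapped 27 of 32 (84.4%, Wilson 95% interval 68.2 to 93.1), and 75.3% of all SATB1 regions. CTCF regions called in at least 2 shCtrl lists overlapped 10 of 32 (31.2%, 18.0 to 48.6), and 71.0% of all. Matrin 3 replicate 1 overlapped 17 of 32 (53.1%, 36.4 to 69.1), and 82.9% of all. H3K27ac without CTCF was the most frequent state, at 17 of 32 regions (53.1%), and held for 12.9% of all SATB1 regions, whereas CTCF without H3K27ac occurred at 0 of 32 and 8.54% of all. The intervals cover counting error only, and regions of 1 locus are not independent, so the difference between the locus and the genome was given no test.

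H3K27ac overlapped 32 and 29 of the 32 SATB1 regions in the shSATB1 lists, against 26 and 27 in the shCtrl lists. Over all SATB1 regions the shares were 79.9% and 76.6% in shSATB1 and 77.9% and 77.0% in shCtrl, and the groups overlapped. There were 5 SATB1 regions without H3K27ac in either shCtrl list, centred at -86.0, -54.2, -51.3, 10.6 and 232 kb from the distal start. All 5 were under H3K27ac in shSATB1 replicate 1 and 2 of the 5 in replicate 2, those at -51.3 and 232 kb. Of 2602 such regions over the genome, 18.7% were under H3K27ac in shSATB1 replicate 1, 13.2% in replicate 2 and 9.34% in both. In the other direction, 0 SATB1 regions of the interval lacked H3K27ac in both shSATB1 lists, and of 2374 such regions over the genome 7.46% were under H3K27ac in both shCtrl lists. These counts belong to the contrast on which the interval was picked and are a description. The shSATB1 peaks at -54.2 kb (total signal 5355) and -51.3 kb (6639 and 5902) lay below the lowest listed in either shCtrl list (6836 and 6653). The shSATB1 replicate 1 peaks at -86.0 kb (8765) and 10.6 kb (7226), and the peaks of both lists at 232 kb (28189 and 27665), lay above those lowest values.

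Peak maxima of different targets lay close together at some places of the locus. Grouping maxima less than 500 bp apart gave 78 clusters, of which 49 joined 2 or more lists, 21 joined 4 or more, 4 joined 11 or more and 1 joined 12. The cluster of 12 lists was chained over 1562 bp, with percentiles of 2.81 to 31.0. No count over the genome is given beside these. At 59.8 kb the maxima of 11 lists fell within 122 bp: both SATB1, all 4 H3K27ac, 1 shSATB1 CTCF, 3 shCtrl CTCF and 1 Matrin 3. At 282 kb, the end of RTKN2, 11 lists fell within 285 bp. At -4.53 kb, just upstream of the distal start, 7 lists fell within 42 bp: all 6 CTCF lists and Matrin 3, without SATB1 or H3K27ac maxima. The clusters at -50.8 and 232 kb were made of the same 4 lists, both SATB1 and both shSATB1 H3K27ac, and these are the upstream and downstream gained regions. Gained regions hold no shCtrl H3K27ac peak by definition, and 42.1% of those over the genome held a SATB1 region. At 137 kb the cluster held maxima of both shCtrl H3K27ac lists and neither shSATB1 list, whose maxima lay at 136 kb. With no control library used here, binding and open chromatin that every antibody picks up cannot be told apart.

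**Figure D4:**
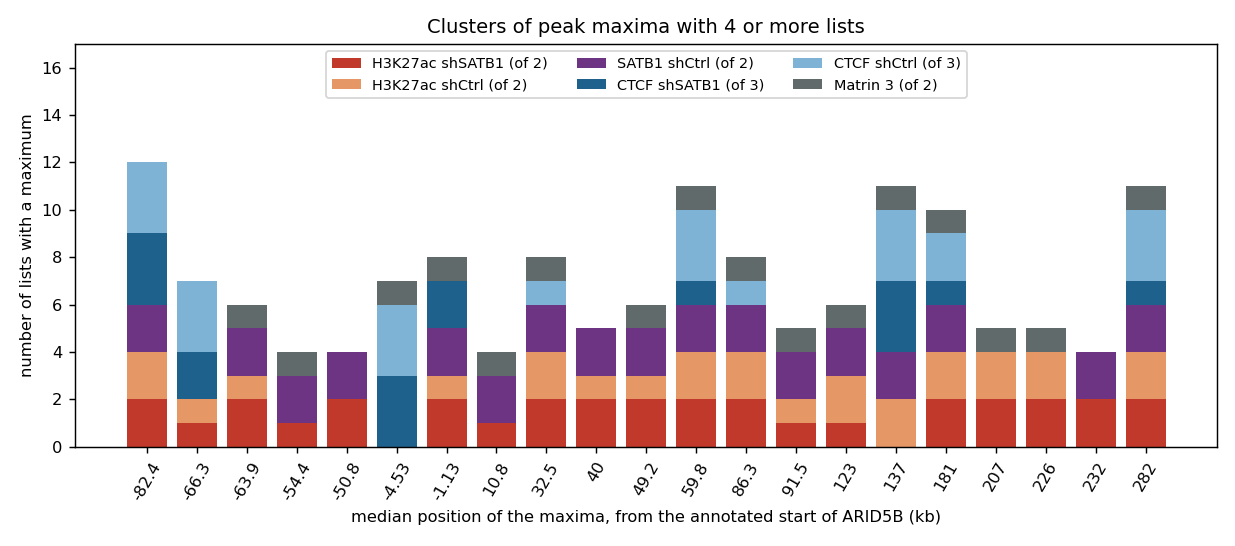
Number of lists with a peak maximum in each of the 21 clusters that join 4 or more lists, by the median position of the maxima from the annotated start of ARID5B (kb); colours are targets and shRNA. The clusters at -50.8 and 232 kb hold SATB1 and shSATB1 H3K27ac alone, and that at -4.53 kb holds CTCF and Matrin 3.

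CTCF covered less of the locus after SATB1 knockdown, as it did over most of the genome. Peaks covered 9.69, 12.3 and 18.7 kb of the interval in the shSATB1 lists, against 37.5, 38.0 and 45.6 kb in the shCtrl lists. All 3 shSATB1 values lay below all shCtrl values, which held in 90.1% of 5140 tiles with CTCF. The means were 13.6 ± 4.65 kb in shSATB1 and 40.4 ± 4.57 kb in shCtrl (SD, n = 3 each), a difference of -26.8 kb, with p = 0.10 in a two-sided exact permutation test, the smallest that 3 against 3 can give, so this design cannot reach 0.05. The difference stood at the 11th percentile of 5606 tiles, whose median was -6.73 kb. Peaks numbered 4, 6 and 7 in shSATB1, against 9, 9 and 10 in shCtrl (exact permutation p = 0.10).

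As a share of each list the arms overlapped. The interval took 0.0396%, 0.0365% and 0.0459% of all CTCF-covered length in the shSATB1 lists and 0.0416%, 0.0406% and 0.0445% in the shCtrl lists, with means of 0.0407% in shSATB1 and 0.0422% in shCtrl (exact permutation p = 0.70). The difference was -0.00157 percentage points, and -0.0104 with the interval widened by 100 kb on each side (exact permutation p = 0.20). With the lists cut to equal length by maximum signal, the shSATB1 minus shCtrl difference in covered length was -7.46 kb (exact permutation p = 0.10), and that in peaks turned to 1.00 more in shSATB1 (p = 0.40, exact permutation). Length of the list, its lowest total signal and shRNA go together here and cannot be told apart.

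Within the locus the CTCF shares were lower in shSATB1 in the gene body, higher in the upstream flank and overlapping in the downstream flank. The ARID5B body held 3.68, 4.05 and 7.81 kb of CTCF in shSATB1, against 21.6, 21.3 and 29.7 kb in shCtrl, and its share of the list averaged 0.0154% in shSATB1 and 0.0253% in shCtrl, a ratio of 0.609 with the groups apart (exact permutation p = 0.10). The flank upstream of the distal start held 6.01, 8.29 and 9.01 kb in shSATB1, against 11.9, 13.5 and 13.4 kb in shCtrl, and its share averaged 0.0237% in shSATB1 and 0.0136% in shCtrl, a ratio of 1.75 with the groups apart (exact permutation p = 0.10). The flank downstream of the gene held 0, 0 and 1.91 kb in shSATB1, against 3.92, 3.11 and 2.55 kb in shCtrl, and its share averaged 0.00156% in shSATB1 and 0.00338% in shCtrl, with the groups overlapping (exact permutation p = 0.40). Over whole tiles, shares were lower in every shSATB1 list in 32.0% and higher in 17.6%. The differences between body and flanks were not tested.

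CTCF regions of the locus numbered 12. None was called in all 3 shCtrl lists and no shSATB1 list, with 22.7% of 34146 regions called so over the genome, and none the other way round, with 0.00879% of all regions. All 6 lists called 3 of them (25.0%, with 35.7% of all regions): at -83.8 to -80.8 kb inside LINC02625, at the distal start, and at 131 to 140 kb in the gene body. A region at -69.7 to -62.8 kb, also inside LINC02625, was called in all but shSATB1 replicate 1. Another 3 were called in all shCtrl lists and in shSATB1 replicate 3 alone, at 58.8 to 66.4 kb, at 177 to 182 kb and at RTKN2. Without that library 3 regions of the locus would count as lost, beside 30.3% of 34100 regions over the genome. The remaining 5 were called in 1 or 2 shCtrl lists and no shSATB1 list.

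At the distal start the highest CTCF peak lay between -4.56 and -4.51 kb in all 6 lists, with percentiles of 87.8, 85.7 and 91.1 in shSATB1 and 92.2, 94.2 and 92.8 in shCtrl. The peaks holding it were 2.95, 3.04 and 7.69 kb wide in shSATB1 and 10.4, 10.5 and 11.2 kb wide in shCtrl. Over the whole lists the median CTCF peak width was 1469, 1650 and 1746 bp in shSATB1 and 2371, 2454 and 2559 bp in shCtrl. In shSATB1 replicates 1 and 2, further separate CTCF peaks lay within the stretch that a single peak spanned in each shCtrl list. Over the SATB1 regions, CTCF overlapped 3, 4 and 7 of 32 in the shSATB1 lists, against 9, 8 and 14 of 32 in the shCtrl lists. Over all SATB1 regions these shares were 41.1%, 47.4% and 52.7% in shSATB1 and 69.6%, 69.1% and 71.4% in shCtrl.

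Matrin 3 replicate 1 had 30 peaks in the interval, covering 37.4 kb, and replicate 2 had none. The highest stood at the end of RTKN2 (80.6th percentile), followed by 59.8 kb (75.3rd), 181 kb (66.7th) and -4.53 kb (65.3rd), which are all places of shared maxima. Nothing rests on a comparison of the pair, since their lists held 24566 and 2105 peaks.

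Set against the genome, the interval was rich in SATB1 and H3K27ac and less so in CTCF. In 5606 tiles of 400 kb, the median number of SATB1 regions was 1.00, and 2 tiles held more than the 32 of the interval. H3K27ac-covered length was higher than in the interval in 1 and 5 tiles for the shSATB1 lists and in 12 and 14 tiles for the shCtrl lists. CTCF-covered length was higher in 757, 835 and 622 tiles for shSATB1 and in 669, 689 and 609 tiles for shCtrl. The H3K27ac difference of 21.4 kb was exceeded in 0 tiles, whose median was -0.630 kb, as a description of an interval picked on this contrast. At least 1 gained H3K27ac region lay in 8.46% of tiles and at least 3 in 0.214%, at least 1 lost H3K27ac region in 18.2%, and at least 1 lost CTCF region in 65.5%, beside the 3, 1 and 0 of the interval. The tiles start at the first base of each chromosome, so 2 of them overlap the interval in part.

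**Figure D5:**
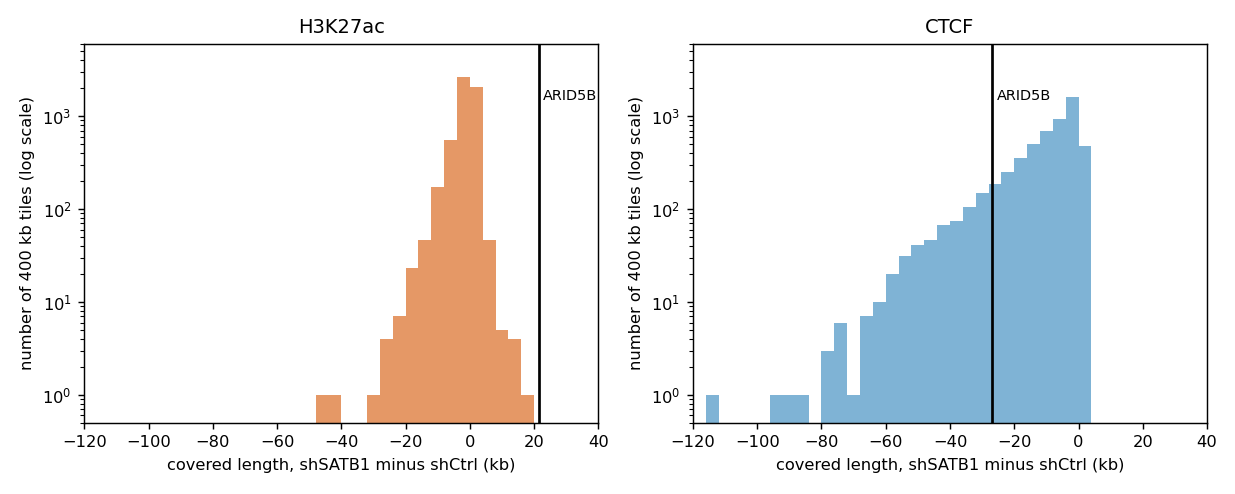
Covered length in shSATB1 minus shCtrl (kb, means over libraries) for 5606 tiles of 400 kb, H3K27ac left and CTCF right, with the number of tiles on a log axis; the line is the ARID5B interval. The interval stands at 21.4 kb for H3K27ac, to the right of all tiles, and at -26.8 kb for CTCF, within their spread.

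Among 3351 protein-coding genes of at least 100 kb, ARID5B was near the top in the share of its body under peaks. H3K27ac shares of 57.1% and 52.3% in shSATB1 were exceeded by 6 and 7 genes, and those of 50.5% and 48.8% in shCtrl by 14 and 13. SATB1 covered 22.3% and 21.7% of the body, exceeded by 9 genes in each list. CTCF covered 1.88%, 2.07% and 4.0% in shSATB1, at the 89.5th, 85.6th and 92.2nd percentile of these genes, and 11.1%, 10.9% and 15.2% in shCtrl, at the 94.3rd, 94.0th and 95.7th.

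The genes nearest to ARID5B by these shares, taking the straight-line distance over the 14 lists, were LIPC, TSPAN7, IKZF2, CD226 and ELF1, at 23.7, 31.5, 31.6, 35.0 and 36.1 percentage points. LIPC encodes hepatic lipase and TSPAN7 a tetraspanin. IKZF2 encodes Helios, an Ikaros family factor of T cells, CD226 an activating receptor of T and natural killer cells, and ELF1 an ETS family factor of lymphocytes. IKZF2 had H3K27ac over 62.1% and 56.4% of its body in shSATB1 and 52.0% and 54.6% in shCtrl, with SATB1 over 33.4% and 34.5%. LIPC had H3K27ac over 50.5% and 45.2% in shSATB1 and 50% and 48.4% in shCtrl, with the groups overlapping, and SATB1 over 7.30% and 7.90%. TSPAN7 had less H3K27ac in shSATB1, at 58.7% and 57.6%, than in shCtrl, at 61.4% and 64.4%. The groups overlapped at CD226, with 43.2% and 37.0% in shSATB1 and 39.0% and 40.6% in shCtrl. They overlapped at ELF1 too, with 40.8% and 35.2% in shSATB1 and 39.9% and 40.2% in shCtrl. Likeness by correlation over the 14 lists named 5 other genes, with 0 in common.

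Among genes of the TAL1 circuit and of the ARID family, gained H3K27ac within the body and 100 kb of it was found at 1 gene of each list. The lists were chosen with earlier results of these data known. In the TAL1 circuit (TAL1, GATA3, RUNX1, MYB, TCF3, TCF12, LMO1, LMO2, LDB1 and MYC) a gained region lay at 1 of 10 genes, with 6.31% of 19974 protein-coding genes called so. That gene was TAL1, where a region of 1.75 kb lay at chromosome 1, 47203003 to 47204751, 11.5 kb outside the gene, with no SATB1 region on it. A lost H3K27ac region lay at 1 of 10, MYB, with 14.5% of all genes called so, and a lost CTCF region at 7 of 10, with 62.6% of all genes.

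Of 15 ARID family genes 14 were matched on the chromosomes kept. ARID5B was the only family member with a gained H3K27ac region, as its choice required, and ARID1B, a subunit of the SWI/SNF remodelling complex, ARID2, a subunit of the related PBAF complex, and ARID5B had a lost region, 3 of 14 beside 14.5% of all genes. A lost CTCF region lay at 11 of 14, ARID5B not among them, beside 62.6% of all genes. PHF2, the partner of ARID5B, had no gained or lost region of either target and no SATB1 region within 100 kb. SATB1 regions within 100 kb numbered 32 at ARID5B, 31 at RUNX1, 24 at MYB, 20 at TCF12, 11 at JARID2 and 10 at ARID4B, and 1 to 5 at the other matched genes of both lists.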

How the data were processed

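Each of the 14 CUT&Tag libraries came with its own peak list. In the deposited lists a peak has its position, its total signal (coverage summed over the peak) and its maximum signal (highest coverage). The submitters' processing notes name SEACR, SAMtools, Bowtie2, Trim Galore and deepTools, plus MACS2 except for Matrin 3, and the build GRCh38. Tool versions, calling thresholds and control libraries are not given in the sources used here, and no scaling of the signal between libraries is recorded. Read depth is unknown, so no interval is given for a peak's signal.

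The autosomes and X were analysed, and 405 of 273747 peaks (0.148%) lay elsewhere and were left out. Peaks sharing at least 1 bp were merged into regions over the lists compared. A region was gained if called in every shSATB1 list and no shCtrl list, and lost in the reverse case. Covered length is the union of a list's peaks within the interval. CTCF values were compared by two-sided exact permutation tests. Only the calling of gained and lost regions was tried on simulated lists, with 200 planted gains and 200 planted losses per target. Those lists were otherwise alike apart from small shifts of peak edges, so unequal list lengths and lowest signals were not simulated. The members and gene lists were chosen with earlier results of these data known. Named genes were ARID5B, protein-coding genes in or nearest to the interval, listed genes with a gained region and the 5 genes of at least 100 kb nearest in body coverage. Other genes were named only as members of those lists. Gene positions and promoter windows came from RefSeq GRCh38.p14. No genome sequence was used, so the gained regions are given by position. Alternatives were other overlap rules, windows of 500 bp on the maxima, bins of 1 kb, lists of equal length, the lowest 10% of peaks left out, a replicate block, other interval bounds, and each library left out in turn. Tools were matplotlib 3.10.9, scipy 1.17.1, pandas 2.3.3, numpy 2.4.6 and Python 3.11.15. Positions are 1-based.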

Additional observations from a re-analysis of the deposited data

How the results depend on the processing

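The H3K27ac difference in covered length stayed positive in all settings tried, at 8.74 to 34.1 kb when 1 library was left out. The interval was picked on this contrast, so the sign of the difference is a description. Gained H3K27ac regions, 3 in the report, numbered 1 in the ARID5B body alone, 6 with windows on the maxima, 14 with bins of 1 kb, 1 with peaks less than 1 kb apart joined (chosen after seeing the data), and 3 to 15 when 1 library was left out. Lost H3K27ac regions, 1 in the report, numbered 0 without the lowest peaks, 2 when overlap had to reach 50% of the shorter peak, 3 with windows on the maxima, 3 with bins, 0 with peaks joined, and 1 to 2 with 1 library left out. Over the genome, gained and lost H3K27ac regions numbered 537 and 1221, but 1015 and 1440 with windows on the maxima, 1784 and 6314 in bins, which are smaller units, and 808 to 1730 and 1591 to 2437 with 1 library left out. The CTCF difference in covered length stayed negative, at -29.3 to -24.1 kb with 1 library left out, and that in peaks at -4.33 to -2.83. With lists of equal length the difference in peaks turned to 1.00 and that in the share of the list to 0.00178 percentage points. With 1 library left out that share difference ran from -0.00419 to 0.000518 percentage points, positive without shSATB1 replicate 2, and in the widened interval it was -0.0104. Lost CTCF regions, 0 in the report, numbered 4 in the widened interval, 1 without the lowest peaks, 8 with bins and 0 to 3 with 1 library left out. Over the genome, gained and lost CTCF regions numbered 3 and 7747, but 214 and 598 with equal lengths. They numbered 422 and 7528 with windows on the maxima, 9 and 33277 in bins, and 1 and 7029 without the lowest peaks. With 1 library left out, gained CTCF regions over the genome numbered 3 to 14 and lost ones 7975 to 10317 (23.4% to 30.3% of all regions). SATB1 regions numbered 33 and 34 in the single lists. The TAL1 circuit had 0 genes with gained H3K27ac within 2 kb. The cause of these shifts was not tested where the setting itself does not give it.

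No pairing by replicate number was seen in covered length, where same-numbered libraries deviated together by correlations of only -0.029 to 0.025. With 2 H3K27ac libraries in each arm the deviations mirror each other, so those values are 0.015 or -0.015 only. Whether same-numbered libraries shared a culture or batch is not on the labels and was not tested. With the replicate number as a block, the CTCF differences were -26.8 kb and -3.67 peaks (exact permutation p = 0.25 each) and -0.00157 percentage points (p = 0.50, exact permutation), and the H3K27ac difference was 21.4 kb. The block was not run for counts of regions, which are made over all lists of an arm.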
